A study of Mus musculus with 4 samples.

Results

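Transcripts of 10 genes of the hyaluronan-based extracellular matrix were measured in mouse hippocampus. They are the lectican genes Acan, Bcan, Ncan and Vcan, the link protein genes Hapln1 and Hapln4, the tenascin genes Tnr and Tnc, the hyaluronan synthase gene Has2, and Cspg5, which encodes a further chondroitin sulfate proteoglycan. The genes were chosen by symbol for their known roles, with earlier results of these data known. Each of the 10 was found among the 22609 genes listed in the count files. All 10 also passed the filter on low counts, which kept 14978 genes. The RNA came from ovariectomized C57BL/6 mice of 2 genotypes, FLOXED controls and PELP1 FBKO knockouts, a forebrain knockout of PELP1, a co-regulator of the estrogen receptor. Each genotype had 2 libraries, which are named by genotype and replicate number. Every animal, controls included, carried an estradiol (E2) mini pump, went through global cerebral ischemia (GCI, in which the brain is briefly cut off from its blood supply) and was sampled at 24 h of reperfusion. Because all groups share ovariectomy, estradiol and ischemia, a genotype difference present before these procedures cannot be told apart from one that followed them. The labels do not state the animals' age or the Cre driver of the knockout. The labels do not tie the libraries to separate animals, and p-values here cover no more than the spread among the libraries, part of which may be technical.

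Lecticans are large proteoglycans with a hyaluronan-binding domain at one end and a lectin-like domain at the other, joined by a stretch that carries chondroitin sulfate chains. Hyaluronan made at the cell surface forms the backbone, link proteins fasten lecticans to it, and tenascin-R crosslinks lecticans at their lectin-like ends. Around some neurons, chiefly parvalbumin interneurons and, in the hippocampus, CA2 pyramidal cells, these parts condense into perineuronal nets, while a looser form fills the space between cells. In the adult brain neurons are a main source of aggrecan and of the link proteins, astrocytes and oligodendrocyte precursors of brevican and neurocan, and precursors of versican. Injury to the central nervous system is known to raise several of these proteoglycans in reactive astrocytes.

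Reads assigned to genes ranged from 17524594 to 22447658 per library. FLOXED 1 was the shallowest and had the largest share of alignments that were not unique, 47.7% against 38.5% to 41.5%; the part of that share in the member values was not tested. Over all tested genes, the SD of the log2 difference between libraries was 0.398 and 0.406 within genotypes and 0.462 to 0.592 between them. Pelp1, the targeted gene, had 26.7 and 26.3 CPM (read counts scaled to library size by TMM) in the controls against 18.0 and 17.3 CPM in the knockouts, so both knockout libraries were below both controls. Its log2 fold change was -0.59 (SE 0.149, edgeR quasi-likelihood, adjusted p = 0.130); reads were counted over all exons, and the labels do not state which were removed. The labelled tissue was checked with the hippocampal genes Neurod6, Zbtb20 and Hpca, all 3 of which had reads in every library, with summed levels of 2659 and 2504 CPM in FLOXED and 2006 and 1504 CPM in PELP1 FBKO. All 7 markers of the adjoining thalamus and striatum also had reads in every library, at 102 and 101 CPM in FLOXED and 140 and 148 CPM in PELP1 FBKO in sum.

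Across the 10 matrix genes the genotypes differed little as a set, and the members went both ways. The link protein gene Hapln1 was about 1.49-fold higher in PELP1 FBKO, Vcan, Bcan and Cspg5 were between 1.18-fold and 1.33-fold higher, and Acan and Ncan were lower, with folds of 0.733 and 0.786. Hapln4 and Tnr overlapped between the genotypes, as did Tnc and Has2, which differed more between libraries of one genotype than any other member did. Of the 10 genes, 0 passed an adjusted p of 0.05 in edgeR's quasi-likelihood test, where the share over all tested genes was 0%, and DESeq2 also called 0 of the 10, against 3.09% of all genes it tested. At an unadjusted p under 0.05 there was 1 gene of 10, Hapln1, against 15.6% of all tested genes. The 2 libraries of one genotype lay clear of both libraries of the other in 6 of 10 genes, 4 higher and 2 lower in PELP1 FBKO, against 48.4% of all genes. Of the 10, 5 had a positive log2 fold change, against 50.0% of all genes. The median log2 fold change (PELP1 FBKO minus FLOXED) was 0.08 over the members and 0.00 over all tested genes. These counts are near the background of the whole table.

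**Figure D1:**
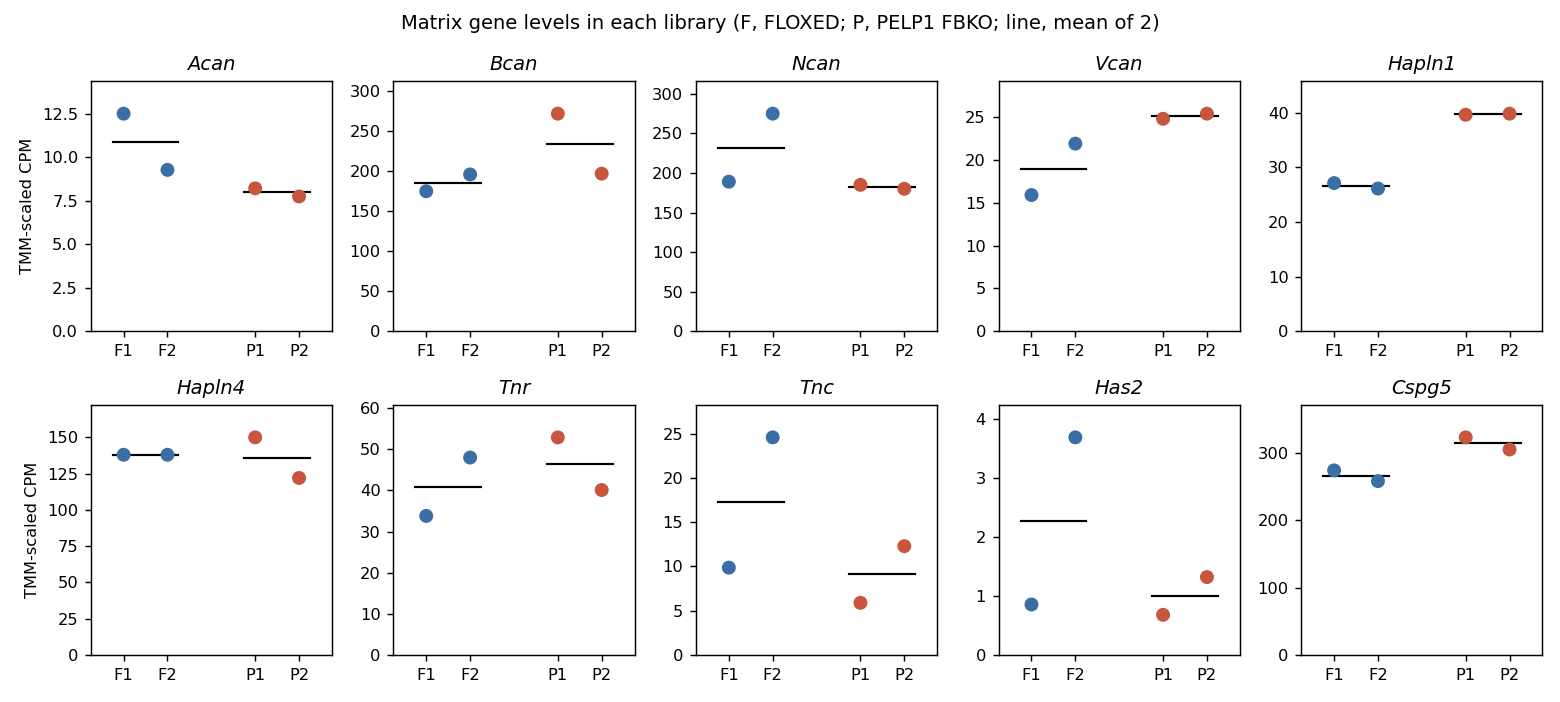
TMM-scaled CPM (y axis, from 0, a separate scale in each panel) of the 10 matrix genes in FLOXED 1 and 2 (F1, F2, blue) and PELP1 FBKO 1 and 2 (P1, P2, red); the line is the mean of the 2 libraries. Hapln1 sits near 26.6 in both FLOXED and near 39.7 in both PELP1 FBKO libraries. Tnc and Has2 are highest in FLOXED 2 and lowest in PELP1 FBKO 1, where Has2 has 15 reads, as in FLOXED 1.

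The 4 lecticans split into 2 genes with higher and 2 with lower values in PELP1 FBKO. Bcan, which encodes brevican, the shortest lectican and one made mainly by glia, had 3076 and 4253 reads in FLOXED and 5998 and 4022 in PELP1 FBKO, or 175, 196, 272 and 197 CPM. The groups were barely apart, since FLOXED 2 and PELP1 FBKO 2 lay next to each other and only PELP1 FBKO 1 stood well above the rest. The log2 fold change of Bcan was 0.34 (SE 0.177, edgeR quasi-likelihood, adjusted p = 0.406), and it was 0.07 without PELP1 FBKO 1. Vcan, which encodes versican, a lectican of oligodendrocyte precursors and of connective tissue, had 15.9 and 21.9 CPM in FLOXED and 24.8 and 25.4 CPM in PELP1 FBKO, from 278, 474, 547 and 518 reads. Both knockout libraries were alike and above both controls, and the controls differed from each other by a ratio of 1.38. Its log2 fold change was 0.41 (SE 0.187, edgeR quasi-likelihood, adjusted p = 0.344), 0.20 without FLOXED 1 and 0.65 without FLOXED 2.

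Ncan and Acan lay on the other side. Ncan, which encodes neurocan, had 189 and 275 CPM in the controls, against 185 and 180 CPM in the knockouts, from 3310, 5965, 4083 and 3671 reads. FLOXED 2 alone stood high, and FLOXED 1 was within a few CPM of the knockout libraries. The log2 fold change of -0.35 (SE 0.186, edgeR quasi-likelihood, adjusted p = 0.414) became -0.06 without FLOXED 2 and -0.59 without FLOXED 1. Acan encodes aggrecan, the lectican most closely tied to perineuronal nets. It was a low gene, with 220, 201, 181 and 158 reads, or 12.5 and 9.27 CPM in FLOXED and 8.21 and 7.74 CPM in PELP1 FBKO. The 2 knockout libraries were close together and below both controls, with FLOXED 1 the highest. Its log2 fold change was -0.45 (SE 0.213, edgeR quasi-likelihood, adjusted p = 0.361), -0.22 without FLOXED 1 and -0.67 without FLOXED 2. The 95% interval of the difference ran from -0.94 to 0.04 for Acan and from -0.78 to 0.08 for Ncan, and both intervals include 0.

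Among the link proteins Hapln1 differed from Hapln4. Hapln1, a widely used link protein that stabilises the bond between lecticans and hyaluronan, had 27.1 and 26.1 CPM in the controls, against 39.6 and 39.8 CPM in the knockouts, from 476, 566, 874 and 813 reads. Libraries of the same genotype nearly coincided, and the gap between genotypes was far wider than either spread. The log2 fold change was 0.58 (SE 0.137, 95% interval 0.26 to 0.89), the smallest p of the 10 members (0.00293, rank 375 of 14978 genes), and the adjusted p over all genes was 0.117 in edgeR's quasi-likelihood test. Over 15 alternative analyses the log2 fold change lay between 0.45 and 0.61 and the adjusted p between 0.0252 and 0.295, and the value under the threshold came from edgeR's exact test. Hapln4, the brain link protein of inhibitory synapses and nets, had 138 CPM in both control libraries, against 150 and 122 CPM in the knockouts. The knockout libraries lay on either side of the controls, with a log2 fold change of -0.02 (SE 0.143, 95% interval -0.35 to 0.31, edgeR quasi-likelihood, adjusted p = 0.962) that became 0.01 with upper-quartile scaling and 0.12 without PELP1 FBKO 2. The difference in response between the 2 link proteins was not tested. Per length, Hapln4 transcripts were 7.97 and 8.26 times those of Hapln1 in FLOXED and 5.92 and 4.81 times in PELP1 FBKO.

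Each link protein gene stands next to a lectican gene in the genome, with 0 other counted genes between them: Vcan with Hapln1, Bcan with Hapln2, Acan with Hapln3 and Ncan with Hapln4 (RefSeq, GRCm38). Hapln2, the link protein of nodes of Ranvier, which is made by oligodendrocytes, had 16.5 and 23.4 CPM in the controls, against 37.0 and 36.4 CPM in the knockouts, and a log2 fold change of 0.87 (SE 0.188, edgeR quasi-likelihood, adjusted p = 0.0983). Both genes of the Vcan and Hapln1 pair and both of the Bcan and Hapln2 pair had positive values with genotypes that did not overlap. Among all tested genes, 25.4% were likewise higher in PELP1 FBKO without overlap. For Bcan the genotypes were barely apart, with 196 CPM (FLOXED 2) next to 197 CPM (PELP1 FBKO 2). Whether neighbouring genes differed together was not tested. Hapln3 was low, at 0.627 and 1.61 CPM in the controls and 1.09 and 0.833 CPM in the knockouts and overlapped between the genotypes. Ncan and Hapln4 had log2 fold changes of -0.35 and -0.02.

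The 250 bases before the start site are shown for Hapln1, the member with the smallest p, and its neighbour Vcan. They are credited to RefSeq on GRCm38.p6, read 5′ to 3′ on the gene's strand, and lie at chr13:89540386-89540635 (plus strand) and chr13:89742513-89742762 (minus strand). Capitals mark the only searched motif found in either, the GC box, GGGCGG on either strand.
Hapln1 promoter: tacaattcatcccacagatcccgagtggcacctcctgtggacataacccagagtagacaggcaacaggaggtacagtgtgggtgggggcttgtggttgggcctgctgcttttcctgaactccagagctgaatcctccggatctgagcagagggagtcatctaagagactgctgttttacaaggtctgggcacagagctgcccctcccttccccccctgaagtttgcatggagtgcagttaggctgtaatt
Vcan promoter: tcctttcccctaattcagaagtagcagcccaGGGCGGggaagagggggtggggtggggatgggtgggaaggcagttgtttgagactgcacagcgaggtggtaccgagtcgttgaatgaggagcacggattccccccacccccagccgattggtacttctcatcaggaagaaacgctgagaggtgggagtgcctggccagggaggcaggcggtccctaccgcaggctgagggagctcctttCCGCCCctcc
The Vcan window held 2 GC boxes and the Hapln1 window 0, and 32.7% of the 32851 promoter windows of the table held at least 1. On both strands, the AP-1 motif TGANTCA, the CRE TGACGTCA, the STAT motif TTCNNNGAA, the estrogen response element half-site AGGTCA, the TATA motif TATAAA and the hypoxia core ACGTG had 0 matches in both windows. Over all windows these were present in 6.75%, 1.55%, 7.02%, 14.0%, 12.4% and 16.6%, in that order. A missing match says only that these letters are not in this stretch. Of the 10 members, 7 had an entry in the promoter table.

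Both tenascin genes overlapped between the genotypes, and the difference between them was not tested. Tnr encodes tenascin-R, made by oligodendrocytes and some neurons, and had 33.8 and 48.0 CPM in the controls, against 52.9 and 40.1 CPM in the knockouts. The libraries of the 2 genotypes interleaved, with a log2 fold change of 0.18 (SE 0.206, 95% interval -0.29 to 0.66, edgeR quasi-likelihood, adjusted p = 0.713). The sign turned, to -0.05, without FLOXED 1 or without PELP1 FBKO 1, and to -0.02 with length and GC offsets. Tnc encodes tenascin-C, which is abundant in development and returns in reactive astrocytes after injury. Its level was 9.87 and 24.6 CPM in the controls and 5.89 and 12.3 CPM in the knockouts, from 173, 534, 130 and 251 reads. PELP1 FBKO 2 exceeded FLOXED 1, so the groups overlapped. The log2 fold change was -0.93 (SE 0.450, edgeR quasi-likelihood, adjusted p = 0.370). It was -0.13 without FLOXED 2 (adjusted p = 0.862), -0.52 without PELP1 FBKO 1 and -1.55 without PELP1 FBKO 2 (adjusted p = 1.73e-05), where the lone knockout library is assumed to vary like the controls.

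Has2, the enzyme that makes the longest hyaluronan chains, followed the same order of libraries as Tnc at a much lower level. It had 15 and 80 reads in the controls and 15 and 27 in the knockouts, or 0.855, 3.69, 0.680 and 1.32 CPM. FLOXED 1 and PELP1 FBKO 1 tied at 15 reads, so their order came from library scaling alone. The log2 fold change of -1.21 (SE 0.650, edgeR quasi-likelihood, adjusted p = 0.414) rested on FLOXED 2: without it the value was 0.21. Without PELP1 FBKO 2 it was -1.76 (adjusted p = 0.0374), and without PELP1 FBKO 1 it was -0.83. An antisense gene that overlaps Has2 was counted separately, with 0, 2, 1 and 0 reads, and the strand setting of the counting is not stated in the labels.

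Tnc and Has2 stood apart from the other members in how much libraries of one genotype differed. The FLOXED 2 to FLOXED 1 ratio was 2.50 for Tnc and 4.31 for Has2, and 0.340% and 0.127% of all tested genes had a ratio at least as far from 1 (with 0.5 CPM added). Between PELP1 FBKO 2 and PELP1 FBKO 1 the ratios were 2.09 and 1.94, with 1.96% and 6.11% of genes as far. In the other 8 genes the ratio lay between 0.739 and 1.46 in FLOXED and between 0.724 and 1.02 in PELP1 FBKO. The hyaluronan receptor gene Cd44, which reactive astrocytes also express, had the same order of libraries, at 43.3 and 68.7 CPM in FLOXED and 11.7 and 55.3 CPM in PELP1 FBKO. Tnn, a further tenascin gene named here after its values were seen, stood at 0.570, 3.46, 0.227 and 1.47 CPM. The 10 markers of reactive astrocytes, with reads in every library, summed to 3155 and 3136 CPM in FLOXED and to 1954 and 4959 CPM in PELP1 FBKO. That sum was mostly Gfap, at 2382 and 2258 CPM in the controls and 1500 and 3882 CPM in the knockouts; without Gfap it was 773 and 878 against 454 and 1077 CPM. Of the 10 markers, 9 were lowest in PELP1 FBKO 1, as Tnc was and, by library scaling alone, Has2. By contrast, 5 were highest in PELP1 FBKO 2, 3 in FLOXED 2 and 2 in FLOXED 1. Cd44, the same gene as above, and Osmr, an oncostatin M receptor gene named after its values were seen, had the library order of Tnc. The share of all tested genes with these orders was not counted. The part of these markers in the result was not tested.

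**Figure D2:**
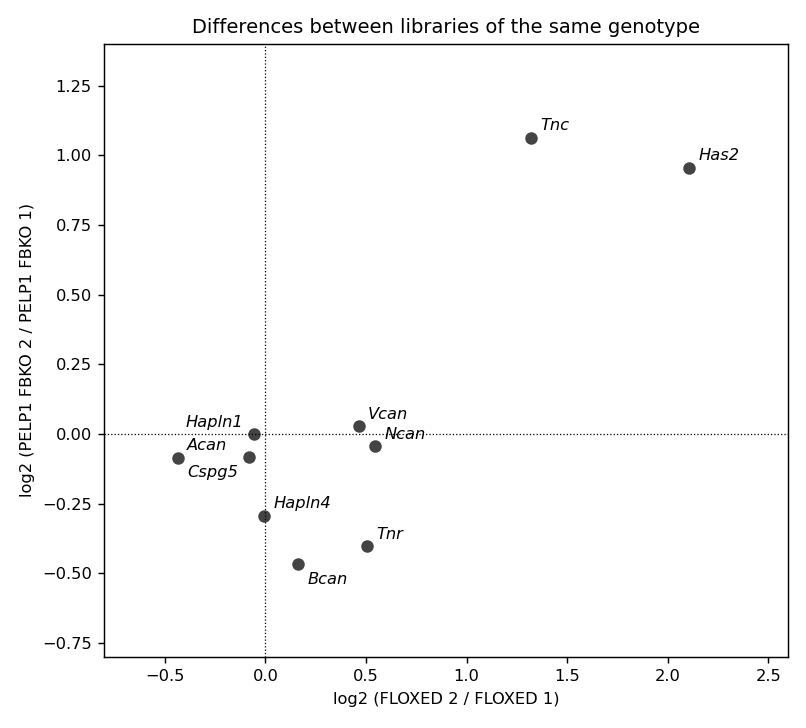
Each point is a matrix gene, placed by the log2 ratio of FLOXED 2 to FLOXED 1 (x axis) and of PELP1 FBKO 2 to PELP1 FBKO 1 (y axis); dotted lines mark equal levels. Tnc (ratios 2.50 and 2.09) and Has2 (4.31 and 1.94) lie at the upper right, away from the other 8 genes.

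The promoter of Tnc is shown because Tnc varied so widely among libraries; Has2 is named only. It lies at chr4:64047016-64047265 (minus strand, GRCm38.p6, RefSeq), and capitals mark a GC box and a TATA motif, TATAAA.
Tnc promoter: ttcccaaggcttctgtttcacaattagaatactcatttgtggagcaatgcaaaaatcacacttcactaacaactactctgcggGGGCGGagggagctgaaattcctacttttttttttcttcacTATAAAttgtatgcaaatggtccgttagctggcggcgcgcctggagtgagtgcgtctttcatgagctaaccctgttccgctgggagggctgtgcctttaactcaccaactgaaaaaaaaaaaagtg
The window held 1 match of each of these motifs and 0 matches to the AP-1, CRE, STAT, estrogen half-site and hypoxia motifs given above. Of all windows, 12.4% held the TATA motif.

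Cspg5, also called neuroglycan C, is a membrane-spanning proteoglycan outside the lectican family that neurons and glia make. It had 4798 and 5602 reads in FLOXED and 7116 and 6225 in PELP1 FBKO, or 274, 258, 323 and 305 CPM. Libraries of a genotype were close and the genotypes did not overlap, but the difference was small, with a log2 fold change of 0.24 (SE 0.134, 95% interval -0.07 to 0.55, edgeR quasi-likelihood, adjusted p = 0.434). With offsets for transcript length and GC content it was 0.05.

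**Figure D3:**
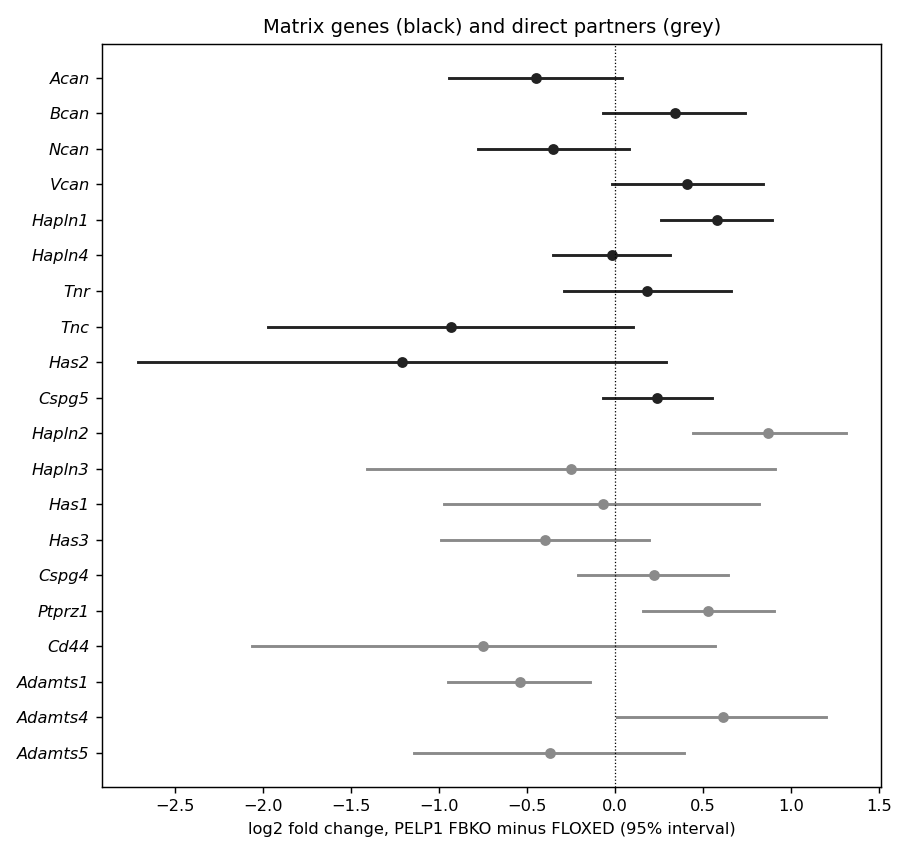
Log2 fold change (x axis, PELP1 FBKO minus FLOXED) with its 95% interval from edgeR's quasi-likelihood fit for the 10 matrix genes (black) and 10 direct partners (grey). Of the 10 matrix genes, the interval of Hapln1, 0.26 to 0.89, alone does not include 0, and those of Tnc and Has2 are the widest.

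Levels of different genes were compared as CPM per kilobase, using the longest coding transcript in GENCODE M21. Bcan was the most abundant at 66.9 CPM per kb (mean of 4 libraries, range 55.8 to 86.6), above the next gene in every library. Hapln4 (37.5), Cspg5 (36.8) and Ncan (28.8) followed, and the ranges of neighbours in this order overlapped. Hapln1 had 5.80 and Tnr 3.58, each above the next gene in all 4 libraries, although the ranges of Tnr and Tnc overlapped. Tnc (1.85), Vcan (1.77) and Acan (1.28) did not differ beyond their spread, and Has2 was the lowest at 0.386. Gene counts do not separate isoforms, so the levels of Cspg5, Tnr and Vcan are loose. With a shorter coding transcript of 3870 bases Cspg5 would have 74.9 CPM per kb and lead the order. Tnr would have 9.88 with one of 4424 bases, above Hapln1. Vcan would have 3.85 with one of 5702 bases and 9.47 with one of 2321 bases, also above Hapln1.

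Brevican and neurocan transcripts made up most lectican mRNA per length. Bcan took 65.7% and 60.2% of the summed lectican CPM per kb in FLOXED and 75.0% and 69.1% in PELP1 FBKO. Ncan took 30.8% and 36.9% in FLOXED and 22.3% and 27.5% in PELP1 FBKO, so the knockout libraries had the larger Bcan share and the smaller Ncan share in each case. The Bcan to Ncan ratio per kb was 2.13 and 1.63 in FLOXED and 3.37 and 2.51 in PELP1 FBKO. Acan took between 0.967% and 2.01%, and Vcan between 1.50% and 2.25%, or 7.54% and above with its transcript of 2321 bases. The summed lectican level itself was 85.1 and 104 CPM per kb in FLOXED and 115 and 90.8 in PELP1 FBKO, and the genotypes overlapped. The Hapln1 to Acan ratio per kb was 2.78 and 3.62 in FLOXED and 6.21 and 6.62 in PELP1 FBKO. These ratios were formed after the values were seen and are given as descriptions with no test.

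**Figure D4:**
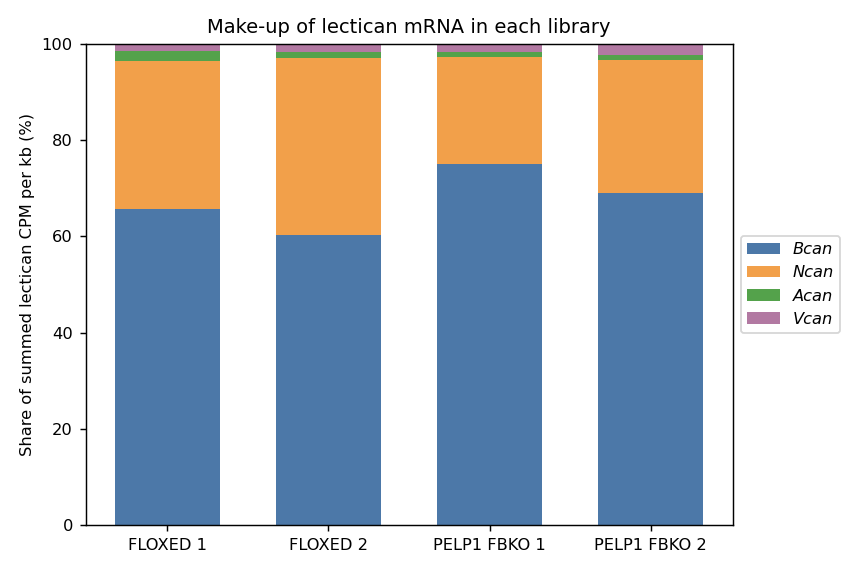
Share of each lectican in the summed lectican CPM per kb (y axis, percent) in the 4 libraries, as stacked bars. Bcan takes 60.2% to 65.7% in FLOXED and 69.1% to 75.0% in PELP1 FBKO, and Ncan the reverse order, with Acan and Vcan as thin bands at the top.

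Other genes of the same matrix were taken from 3 lists. In the list of 29 partners (link proteins, hyaluronan enzymes, receptors and binders), 28 were tested, 0 passed the adjusted threshold, and among genes with an unadjusted p under 0.05 the knockout value was higher in 4 and lower in 2. The median log2 fold change was -0.05. Over all tested genes that unadjusted rule took 10.1% as higher and 5.55% as lower. Beside Hapln2, the higher genes were Tnfaip6, a hyaluronan-binding protein that moves heavy chains onto hyaluronan (log2 fold change 1.17, 3.59 and 8.17 CPM in the controls and 13.1 and 13.6 CPM in the knockouts), Ptprz1, a glial receptor phosphatase that carries chondroitin sulfate (0.53, SE 0.161), and the hyaluronidase gene Hyal1 (0.57, SE 0.246). Their adjusted p in edgeR's quasi-likelihood test lay at 0.161, 0.178 and 0.314. The lower ones were Nptx2, a neuronal pentraxin that clusters AMPA receptors and is induced by activity, and Crtac1, a secreted matrix protein. Nptx2 had 154 and 115 CPM in the controls, against 37.4 and 69.9 CPM in the knockouts, and a log2 fold change of -1.32 (SE 0.278, edgeR quasi-likelihood, adjusted p = 0.0934). Crtac1 had -0.33 (SE 0.130).

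The other hyaluronan synthases were low, with Has1 between 0.912 and 1.11 CPM and Has3 between 2.81 and 3.88 CPM, and had log2 fold changes of -0.07 and -0.40. Cspg4, the NG2 proteoglycan of oligodendrocyte precursors and pericytes, had 0.22 (SE 0.184) and Cd44 -0.75 (SE 0.570), with genotypes that overlapped in both.

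Enzymes that build chondroitin sulfate chains had no member with a small p. Of 23 such genes 22 were tested, 0 passed the adjusted threshold, 0 had an unadjusted p under 0.05 (against 15.6% of all tested genes), and the median was -0.09. First by p were Csgalnact1, which starts the chain (log2 fold change 0.38, SE 0.186), and Chst15, which adds a further sulfate (-0.27, SE 0.139). Chsy1, Chpf2, B4galt7 and Fam20b came next, with log2 fold changes of -0.29, -0.17, -0.19 and 0.14.

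Of 13 lectican-cleaving proteases and their inhibitors, all were tested and 0 passed the adjusted threshold. Where the unadjusted p was under 0.05, the knockout value was higher in 4 and lower in 1, against 10.1% and 5.55% of all tested genes, and the median over the list was 0.10. Timp3, an inhibitor of ADAMTS proteases, had 85.4 and 105 CPM in the controls, against 136 and 163 CPM in the knockouts (log2 fold change 0.65, SE 0.156, edgeR quasi-likelihood, adjusted p = 0.117). Adamts4, an aggrecanase that cuts brevican and is made in part by oligodendrocytes, had means of 14.0 ± 5.66 CPM (SD, n = 2) in the controls and 21.5 ± 0.971 CPM in the knockouts (0.61, SE 0.259), and Adamts20 and the membrane protease gene Mmp14 had 0.64 (SE 0.183) and 0.51 (SE 0.213). Adamts1, an injury-induced protease that also cuts lecticans, lay on the other side at 53.5 and 64.3 against 34.8 and 46.0 CPM (-0.54, SE 0.174, edgeR quasi-likelihood, adjusted p = 0.198). Timp1, another inhibitor gene of the list, was not among its 6 smallest p. It stood at 33.2 and 29.2 CPM in the controls and at 0.861 and 24.9 CPM in the knockouts, with PELP1 FBKO 1 far below the rest. Its log2 fold change was -1.28 (SE 0.932, edgeR quasi-likelihood, adjusted p = 0.547). Adamts5 was low, between 1.27 and 1.85 CPM, with a log2 fold change of -0.37, and Adamts15 had 0.45 (SE 0.239).

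Levels of cell type markers moved with genotype beside several members. In bulk tissue, more or fewer cells of a type and more or less RNA per cell cannot be told apart. For Bcan, Vcan, Cspg5 and Ptprz1, the 10 astrocyte markers, all with reads in every library, summed to 3767 and 4763 CPM in FLOXED and 6485 and 5978 CPM in PELP1 FBKO. The largest part of that sum was Slc1a2, at 1482 and 2430 against 3386 and 2722 CPM. The library order of the sum, FLOXED 1, FLOXED 2, PELP1 FBKO 2 and PELP1 FBKO 1 from low to high, was also that of Bcan. The dentate granule sum and the endothelial and mural sum had this order too, and not every astrocyte marker did. The 10 markers of oligodendrocyte precursors, which had reads throughout, summed to 328 and 367 CPM in FLOXED and 429 and 431 CPM in PELP1 FBKO, in the library order of Vcan. The oligodendrocyte, meningeal fibroblast and parvalbumin interneuron sums had that order too. Ncan, also made by astrocytes and precursors, lay on the other side of both sums. It had 189 and 275 CPM in FLOXED and 185 and 180 CPM in PELP1 FBKO (log2 fold change -0.35). For Hapln2 and Adamts4, the 10 oligodendrocyte markers summed to 2978 and 3804 against 5914 and 6369 CPM. Tnr, also made by oligodendrocytes, overlapped between the genotypes (log2 fold change 0.18). For Vcan, the 10 markers of meningeal fibroblasts summed to 141 and 174 against 183 and 283 CPM. None of these marker genes had 0 reads in a library.

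For the net genes Acan and Hapln1, the 10 parvalbumin interneuron markers, all with reads, summed to 859 and 916 CPM in FLOXED and 1199 and 1217 CPM in PELP1 FBKO. The sum lay on the side of Hapln1 and not on that of Acan. Hapln4 and Tnr, also parts of nets, overlapped between the genotypes, with log2 fold changes of -0.02 and 0.18. Most of it was Gad1, at 341 and 341 against 476 and 501 CPM, and Gad2, at 158 and 187 against 251 and 286 CPM. Pvalb itself overlapped, at 66.6 and 51.4 against 63.2 and 66.2 CPM. Syt2 and Kcns3 overlapped too, with log2 fold changes of 0.18 and -0.15. Of the 10 markers, 7 were higher without overlap, against 25.4% of all tested genes, and 1 had a negative log2 fold change. The sum of the 10 CA2 markers overlapped, at 541 and 454 against 558 and 515 CPM. So did that of the 10 general neuron markers, at 12491 and 12985 against 14266 and 11560 CPM. The sum of the 10 CA1 markers was lower in PELP1 FBKO, at 813 and 960 against 643 and 577 CPM. That of the 10 dentate granule markers was higher, at 365 and 388 against 514 and 410 CPM. Of these dentate markers, 3 had a negative log2 fold change. The sum of the 10 endothelial and mural markers was also higher, at 163 and 225 against 287 and 278 CPM. That of the 10 microglial markers was barely apart, at 711 and 640 against 721 and 1004 CPM. Among the microglial markers, 1 had a negative log2 fold change, Fcrls at -0.67. The part of these markers, and of the thalamic and striatal ones, in the member values was not tested.

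Over 11718 other genes with a mean of at least 5 CPM, the 2 whose centred log2 profile over the 4 libraries was nearest to that of Hapln1 were Dhrs3, a retinaldehyde reductase gene, and Gramd3. Their Euclidean distances were 0.0218 and 0.0474. Dhrs3 had 17.8 and 17.2 CPM in the controls, against 25.6 and 25.9 CPM in the knockouts, and Gramd3 at 13.0, 13.0, 19.0 and 19.6 CPM. With 4 libraries and so many genes, near matches are common, and the likeness is a description only.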

How the data were processed

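Hippocampal RNA gave 4 TruSeq libraries read as single 50-base reads, per the labels' protocols. The authors deposited whole-number counts of reads for each gene symbol, without normalization. Tools in the submitters' processing notes are CASAVA 1.8.2 with TopHat2 2.0.8b and HTSeq, and the build there is mm9. The design text gives a human build instead, against the mouse symbols of the files, and says that duplicate runs were combined. For HTSeq, the version, strand setting and annotation: not given in the sources used here. HTSeq's summary rows were left out; 14.7% to 15.7% of uniquely placed reads lay in no gene and about 1% were ambiguous. A gene with 0 reads could reach 0.134 to 0.171 CPM (3 reads), counting error only.

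Genotypes were compared with edgeR 4.0.16 (R 4.3.3): filterByExpr, TMM, a quasi-likelihood F test of genotype, Benjamini-Hochberg adjustment over 14978 genes and a threshold of 0.05, tested on simulated data. The biological coefficient of variation was 14.2%. CPM is TMM-scaled, and SEs derive from the F statistic. DESeq2 1.42.0, limma-voom (limma 3.58.1), edgeR's exact test, other scalings and filters, a replicate block, length and GC offsets and leaving out each library were alternatives. The members and gene lists were chosen with earlier results of these data known. Named were all members, Pelp1, fixed direct partners, up to 6 genes of each list by p, and the nearest profiles of members with p under 0.05. Outside this rule, Hapln3, Timp1, Tnn, Osmr and some marker genes were also named. No coordinates on mm9 are given.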

Additional observations from a re-analysis of the deposited data

How the results depend on the processing

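Of the 10 matrix genes, 0 passed the threshold under 12 alternatives: DESeq2, RLE and upper-quartile factors, library totals only, limma-voom, no count filter, at least 50 reads in every library (which left 9 of the 10 tested), length and GC offsets, an adjusted p of 0.10, and without FLOXED 1, FLOXED 2 or PELP1 FBKO 1. It was 1 by edgeR's exact test (Hapln1) and between 0 and 2 on leaving out a library (Tnc and Has2, without PELP1 FBKO 2). Of 149 single-gene values, 139 kept direction and side, 4 newly passed the threshold and 6 changed sign. Those were Hapln4 with upper-quartile factors (0.01) and without PELP1 FBKO 2 (0.12), Tnr with length and GC offsets (-0.02) and without FLOXED 1 or PELP1 FBKO 1 (both -0.05), and Has2 without FLOXED 2 (0.21); beyond the left-out samples, the cause was not tested. On leaving out a library, Hapln4 ranged from -0.19 to 0.12, Tnr from -0.05 to 0.45 and Has2 from -1.88 to 0.21. Over all genes, 0 passed in the main analysis, with limma-voom and without FLOXED 1, where 2341, 2331 and 1596 genes had an unadjusted p under 0.05. The count was 449 with DESeq2, 17 with RLE factors, 42 with upper-quartile factors, 23 with library totals, 759 by the exact test, 359 without a count filter, 43 with at least 50 reads, 446 with length and GC offsets, 293 at 0.10 and 0 to 598 on leaving out a library. The labels do not say whether a replicate number marks a shared animal or day. Same-numbered deviations correlated at -0.118 over 14978 genes, and with 2 libraries per genotype this cannot show whether the numbers pair the samples. With the replicate block the counts were 1 member (Tnc, -0.88, adjusted p = 0.0241) and 566 genes, and with numbers crossed, chosen after seeing the data, 0 members and 314 genes. Has2, at 15 to 80 reads, is limited by depth.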
